A study of Mus musculus with 4 samples.

Results

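RNA-seq was used to set a synthetic disaccharide directly against the cellular pool of glycans in which it occurs. RAW264.7 cells, a mouse macrophage line, were permeabilized with digitonin and given 1 of 4 additions for 24 h: 10 µM Manβ1-4GlcNAc in water (ManGn), 10 µM of the free oligosaccharide pool of Trex1-/- cells (fOS), ultrapure water, or the water of a mock fOS extraction. The 2 ligand libraries are compared here, with the 2 control libraries beside them, so that 2 of the 4 libraries carry the comparison. All 4 cultures were kept in DMEM with 25 mM glucose and 10% serum, all were permeabilized, and total RNA was taken with Trizol. Permeabilization lets glycans into the cytosol, so a response at the surface of intact cells is not modelled. The pool came from Trex1-/- mouse embryonic fibroblasts, it is a mixture that includes the disaccharide, and its concentration is that of the whole pool. The matched 10 µM dose is therefore not a matched dose of the disaccharide. The genes compared were those with at least 1 FPKM (fragments scaled to transcript length and to the mapped total of the library) in at least 1 of the ManGn and fOS libraries, a condition met by 10829 of the 17655 genes in the table. A gene could thus pass through 1 library alone, that in which it was higher. Of the 6826 genes left out, 3063 were listed at 0 in both libraries. The larger of both values was exactly 1 FPKM for 10 genes just inside this limit and 0.99 FPKM for 9 genes just outside it.

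Free oligosaccharides are released when N-glycans, or the lipid-linked precursors that donate them, are cleaved and degraded. TREX1 is a DNA exonuclease of the endoplasmic reticulum whose C-terminal part also interacts with the oligosaccharyltransferase that transfers N-glycans onto proteins. Cytosolic danger signals in macrophages commonly act through the adaptor STING and the kinase TBK1, which turn on type I interferon and interferon-stimulated genes through IRF3, and through NF-κB, which turns on chemokines and cytokines. The disaccharide and the pool were therefore described first for these genes and then for the other programs that separated them.

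Each condition had 1 library, which leaves every difference without a replicate check, and neither a standard error nor a p-value can be given. A gene was counted when the ratio of FPKM + 0.1 was at least 2-fold. Each ligand also had its own vehicle. The ratio of ManGn to fOS (the direct ratio) equals the difference between the responses to each own control plus the ratio of water to mock extraction (the control ratio), so ligand and vehicle cannot be told apart in the direct ratio alone. The log2 direct ratio is given with the control ratio for the genes that a result turns on. For gene lists the own-control difference is given as well, the log2 ratio of ManGn to water minus that of fOS to mock extraction, by which 9.93% of all genes compared were at least 2-fold higher and 3.57% lower (1075 and 387 genes).

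The water library stood apart from the other control. By 2-fold counts over the genes expressed in either library of a pair, it differed from the mock extraction at 16.23% of genes, from ManGn at 17.09% and from fOS at 29.00%, whereas the mock extraction differed from ManGn at 7.16% and from fOS at 9.41%. ManGn thus had fewer such differences from the vehicle of the pool than from its own vehicle. The estimated depth was similar, between 9840000 and 10540000 reads per library, and between 10405 and 10663 genes reached 1 FPKM. At this depth 1 FPKM on a transcript of 2000 nt corresponds to 19.7 to 21.1 reads. All 11 macrophage markers found in the table were at 30.08 FPKM or above, with summed levels between 10850 and 12020 FPKM per library. None of 10 fibroblast markers reached 1 FPKM in any library, with sums of 0.27 to 0.51 FPKM, and the 4 epithelial markers in the table were listed at 0 throughout. Dendritic cell and erythroid markers stayed under 1 FPKM as well. Of the T cell, B cell and neutrophil markers, 2 of each list reached 1 FPKM, and their summed levels with ManGn and fOS were 2.89 and 1.65, 34.72 and 45.19, and 26.38 and 28.42 FPKM.

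The median log2 direct ratio was −0.014. FPKM is scaled to each library's total, so a median near 0 does not show that total levels were equal. By at least 2-fold 985 genes (9.10%) were separated. The difference was lopsided. With ManGn 708 genes (6.54%) were higher than with fOS and 277 (2.56%) were lower. On the same genes the controls were separated more widely and in the other direction, with 609 genes (5.62%) higher and 1017 (9.39%) lower with water than with the mock extraction. Of the 708 genes higher with ManGn, the controls were 2-fold apart in the same direction for 251 (35.5%), in the opposite direction for 59 (8.30%) and under 2-fold apart for 398 (56.2%). Of the 277 lower genes the corresponding numbers were 115 (41.5%), 31 (11.2%) and 131 (47.3%).

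Of the 708 higher genes, 290 lay at least 2-fold below both controls with fOS, beside 4.34% of all genes compared. With ManGn 108 lay at least 2-fold above both, beside 1.87%. Of these genes 2 did both, and 312, the largest class, did neither. Of the 277 lower genes, 86 lay at least 2-fold above both controls with fOS, beside 2.00% of all genes. With ManGn 22 lay at least 2-fold below both, beside 1.02%, and 170 of the 277 did neither. The genes were picked by the direct ratio, which raises such shares. By at least 4-fold 180 genes were higher and 80 lower, and by at least 8-fold 83 and 57. Low values contributed most: of 2656 genes with a mean of both ligand libraries under 5 FPKM, 16.38% were higher and 5.65% lower, and of 3108 genes between 20 and 100 FPKM 2.51% and 1.51%. Small RNA genes were a special case, with 46 higher and 42 lower among only 139 compared, and they are counted but not described.

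**Figure D1:**
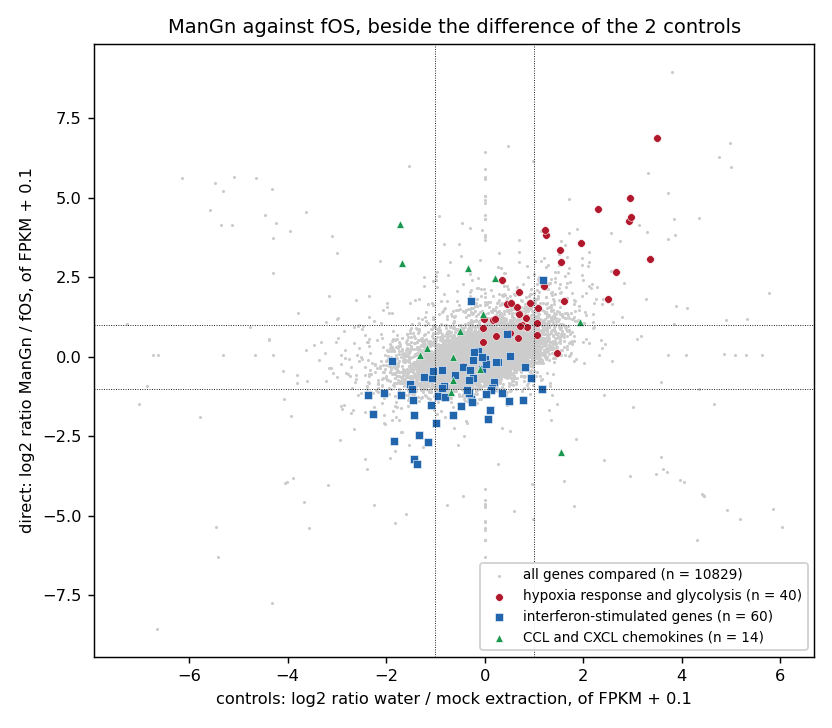
Each point is 1 of 10829 genes, with the log2 control ratio (water over mock extraction) on the horizontal axis and the log2 direct ratio (ManGn over fOS) on the vertical axis, both of FPKM + 0.1 and from 1 library per condition, and dotted lines at 2-fold. Hypoxia and glycolysis genes (red circles, n = 40) lie to the upper right, interferon-stimulated genes (blue squares, n = 60) mostly below 0, and the chemokines (green triangles, n = 14) include points high in the direct ratio with control ratios on both sides of 0.

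By median direct ratio the list furthest from 0 was that of the hypoxia response and glycolysis, whose genes are turned on by HIF transcription factors when oxygen is low. Of 40 such genes, all of which were compared, 29 were at least 2-fold higher with ManGn than with fOS and 0 were lower, beside 6.54% and 2.56% of all genes compared. The median log2 direct ratio of the list was 1.61. The controls were separated in the same direction, with 19 genes higher and 0 lower with water than with the mock extraction and a median log2 control ratio of 0.89. By own-control difference 16 of the 40 genes lay 2-fold or more higher and 1 lower, beside 9.93% and 3.57% of all genes. The own-control median was 0.84. It was larger for CCL chemokines (1.41), ATF4 genes (1.10), osteoclast genes (1.04), matrix proteases and inhibitors (0.97) and Fc receptor genes (0.91). The median level of the 40 genes was 88.8 FPKM with water, 51.2 FPKM with ManGn, 28.2 FPKM with the mock extraction and 14.2 FPKM with fOS. This order of the 4 libraries was followed by 27 of the 40 genes, beside 8.78% of all genes compared. The fOS library was the lowest of the 4 for 39 of the 40, beside 29.5% of all genes, and lay at least 2-fold below both controls for 21 of them, beside 4.34%.

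Adm (Entrez Gene 11535) encodes adrenomedullin, a vasodilator peptide. It was at 66.93 FPKM with water, 5.83 after mock extraction, 27.13 with ManGn and 0.13 with fOS. All 4 libraries were far apart and fOS was nearly empty of its transcript. The log2 direct ratio was 6.89 and the control ratio 3.50. The estimated 376 reads with ManGn and 1.90 with fOS gave a ratio of 199 with an exact 95% interval from 54.7 to 1649, which covers counting error only, as do all intervals here.

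Bnip3 (Entrez Gene 12176), a receptor for the removal of mitochondria, stood at 389.46 FPKM with water, 163.19 after mock extraction, 293.19 with ManGn and 20.38 with fOS. Only fOS was far down. The log2 direct ratio of 3.84 exceeded the control ratio of 1.25, and reads gave a ratio of 14.4 (interval 13.0 to 16.0). Vegfa, the angiogenic growth factor, had 48.49, 20.62, 34.06 and 2.06 FPKM in the same order (log2 direct ratio 3.98, control ratio 1.23). Eno2, an enolase of glycolysis, had 113.37, 14.87, 49.44 and 2.45 FPKM (4.28 and 2.92). Ak4, a mitochondrial adenylate kinase, had 41.98, 14.58, 34.61 and 3.25 FPKM (3.37 and 1.52). In each of these genes ManGn lay between both controls and fOS lay below both.

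Ankrd37, an ankyrin repeat protein gene known as a HIF target, was at 108.75 FPKM with water, 22.06 after mock extraction, 36.55 with ManGn and 1.35 with fOS (log2 direct ratio 4.66, control ratio 2.30). P4ha2, a subunit of collagen prolyl hydroxylase, was at 7.68, 0.91 and 3.10 FPKM and was listed at 0 with fOS, so no fold is given. Egln3, a prolyl hydroxylase of oxygen sensing, was at 3.57, 0.37, 2.62 and 0.03 FPKM, where the fOS value stands for less than 1 estimated read. The least separated members, chosen after their values were seen, were the glucose transporter gene Slc2a3 with a log2 direct ratio of −0.28 and the carbonic anhydrase gene Car9 with 0.11. Hif1a, which encodes the regulated HIF subunit and was looked up after the other values were seen, was at 40.92 FPKM with ManGn against 32.00 with fOS.

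The core of the hypoxia-responsive element is ACGTG. RefSeq windows of 300 bases from 250 before to 50 after a transcription start were given for 36 of the 40 genes, and 29 of their 54 windows (53.7%) held these letters on either strand, beside 26.5% of the windows of genes compared and 19.6% of all windows given. A match is a description of the letters and not evidence of a bound site. The stretches before the starts of both genes with the largest direct ratios that held a match are shown from GRCm38.p6 in the direction of transcription, with ACGTG in capitals.
P4ha2, chr11:54100801-54100900, plus strand: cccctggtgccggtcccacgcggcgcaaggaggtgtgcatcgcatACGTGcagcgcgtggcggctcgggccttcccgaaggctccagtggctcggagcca
Ankrd37, chr8:45999851-45999950, minus strand: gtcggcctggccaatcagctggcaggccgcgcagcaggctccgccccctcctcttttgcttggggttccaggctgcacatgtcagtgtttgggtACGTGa
The windows of Adm and Eno2 held no such letters, which says nothing of other parts of these genes.

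Lists of lipid synthesis, growth restraint and clock genes also often had fOS as the lowest library. It was the lowest for 27 of 34, 16 of 18 and 10 of 15 genes, beside 29.5% of all genes. It lay at least 2-fold below both controls for 6, 9 and 4 of them, beside 4.34% of all genes. Of 34 sterol and fatty acid synthesis genes compared, 5 were at least 2-fold higher with ManGn and 0 were lower, beside 6.54% and 2.56% of all genes, with a median log2 direct ratio of 0.58 and a control median of 0.51. The own-control median was 0.03, with 3 genes higher and 0 lower. Scd1 and Scd2 had the largest direct ratios of the list, far above its median. Scd1, a stearoyl-CoA desaturase that makes monounsaturated fatty acids, was at 71.64 FPKM with water, 58.62 after mock extraction, 44.05 with ManGn and 4.55 with fOS. Only fOS stood apart, the log2 direct ratio was 3.25 and the control ratio 0.29, and reads gave a ratio of 9.67 (interval 8.44 to 11.1). Scd2 had 439.15, 199.57, 299.02 and 37.11 FPKM, with a log2 direct ratio of 3.01 and a control ratio of 1.14. Among 18 FOXO-linked growth brakes compared, 8 were higher and 0 lower, beside 6.54% and 2.56% of all genes (median log2 direct ratio 0.81). Between the controls 9 were higher and 1 lower with water, beside 5.62% and 9.39% of all genes (median 1.05). The own-control median had the other sign, −0.09, with 4 higher and 1 lower. Ccng2, the cyclin G2 gene, was at 62.32, 18.85, 19.27 and 1.22 FPKM with a log2 direct ratio of 3.88 and a control ratio of 1.72. ManGn thus matched the mock extraction for Ccng2 within 1 FPKM, and fOS lay far below. Of 15 clock genes, 6 were higher and 0 lower, beside 6.54% and 2.56% of all genes, with a median direct ratio of 0.69. The control median was 0.44 and the own-control median −0.01, the latter with 3 genes higher and 2 lower. The largest ratio was that of Bhlhe40, a repressor in the clock that also responds to hypoxia, with 35.40, 27.78, 59.66 and 11.24 FPKM.

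The stress genes that ATF4 turns on when amino acids are short behaved differently in the controls. Of 39 compared, 10 were at least 2-fold higher with ManGn than with fOS and 0 were lower, beside 6.54% and 2.56% of all genes, with a median log2 direct ratio of 0.45. By own-control difference 24 of the 39 were higher and 0 lower, beside 9.93% and 3.57%, with a median of 1.10. Between the controls the list ran the other way, with a median of −0.77. With water 1 gene was higher and 12 were lower, beside 5.62% and 9.39% of all genes. Ddit3, which encodes the stress factor CHOP, was at 25.76 FPKM with water, 159.35 after mock extraction, 29.55 with ManGn and 8.49 with fOS. Highest was thus the mock extraction and the lowest was fOS, its counterpart with ligand, and the log2 direct ratio was 1.79 beside a control ratio of −2.62. Trib3, a pseudokinase induced by CHOP, showed the same shape with 4.85, 39.13, 4.79 and 0.41 FPKM. Stc2, the stanniocalcin 2 gene, was at 3.12, 4.33, 4.72 and 0.16 FPKM, so that ManGn was close to the controls while fOS stood far below (log2 direct ratio 4.21, control ratio −0.46, interval of the read ratio 13.3 to 70.5). Across the list fOS was the lowest library for 26 of 39 genes, beside 29.5% of all genes compared. Atf4 itself, looked up after the other values were seen, was at 99.97 FPKM with ManGn against 78.94 with fOS and 261.45 after mock extraction.

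**Figure D2:**
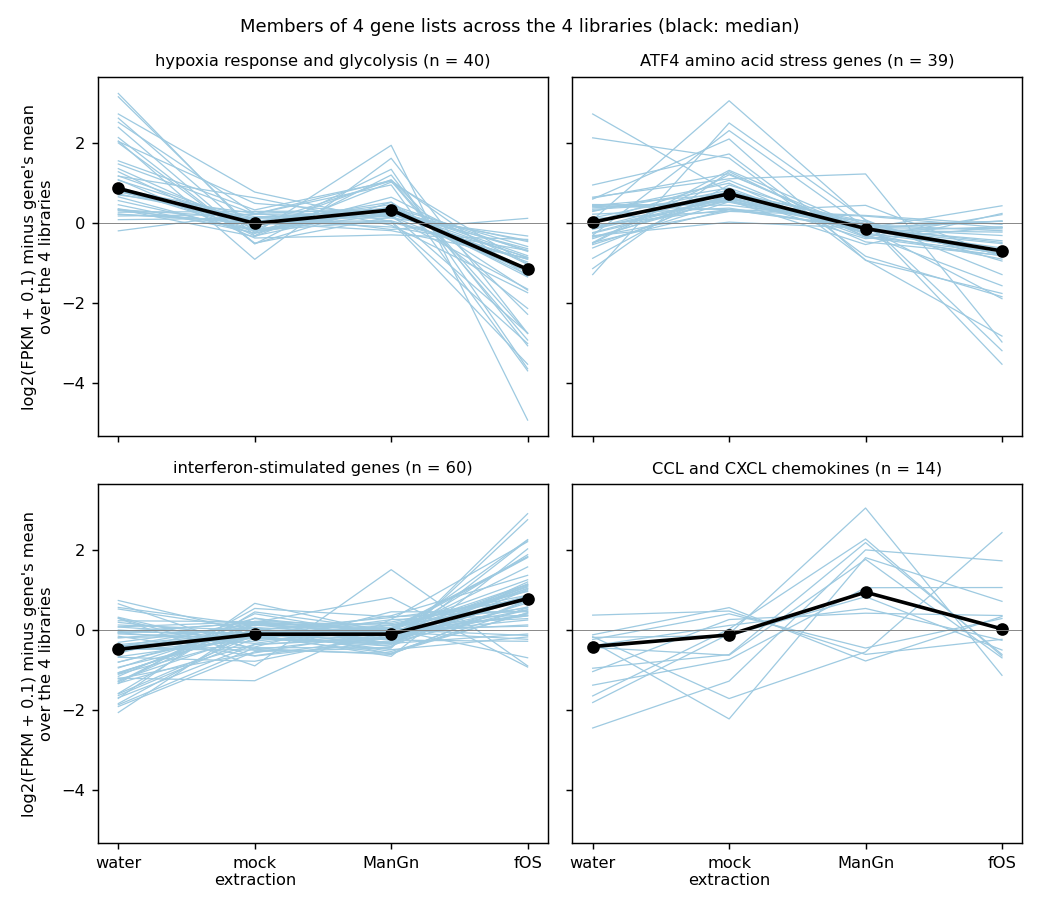
Each thin line is 1 gene of a list across the 4 libraries, as log2(FPKM + 0.1) minus the gene's mean over the 4 libraries, and the black line is the median of the list. The hypoxia genes step down from water to fOS with ManGn above the mock extraction, the ATF4 genes peak in the mock extraction, the interferon-stimulated genes are highest with fOS, and the chemokines are highest with ManGn in most but not all lines.

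Chemokine genes separated the ligands in both directions, and these are among the NF-κB targets of macrophages. Of 8 CCL genes compared, 3 were at least 2-fold higher with ManGn and 1 lower (median log2 direct ratio 0.54). Of 6 CXCL genes 3 were higher and 1 lower (median 0.55), whereas the control medians were −0.57 and −0.37. Over all genes compared 6.54% were higher and 2.56% lower. Ccl7 and Cxcl11, counted as higher, reached 1 FPKM with ManGn only, and Ccl5, counted as lower, with fOS only. By own-control difference 6 of the 8 CCL genes were higher and 1 lower, beside 9.93% and 3.57% of all genes, with a median of 1.41, and 2 of the 6 CXCL genes were higher and 0 lower, with a median of 0.18. ManGn lay at least 2-fold above both controls for 4 of the 8 and 3 of the 6, beside 1.87% of all genes compared, and fOS for 2 and 2, beside 2.00%. Cxcl2 (Entrez Gene 20310), a neutrophil attractant, was at 1.49 FPKM with water, 5.13 after mock extraction, 46.57 with ManGn and 2.45 with fOS. Only ManGn stood high. The log2 direct ratio was 4.19 against a control ratio of −1.72, and 514 estimated reads against 28.6 gave a ratio of 18.8 (interval 12.9 to 28.3).

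Ccl3 and Ccl4, neighbouring genes for inflammatory attractants, repeated this shape. Ccl3 was at 124.69, 108.82, 576.01 and 103.97 FPKM with water, mock extraction, ManGn and fOS (log2 direct ratio 2.47, control ratio 0.20). Ccl4 was at 10.73, 13.62, 95.97 and 13.67 FPKM (2.80 and −0.34). For both genes the fOS library lay on its own control, and the intervals of the read ratios were 5.15 to 5.98 and 5.66 to 8.82.

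Other chemokines did not follow them. Ccl2, the monocyte attractant, was at 1.91, 4.44, 44.27 and 36.59 FPKM, high with both ligands and with a log2 direct ratio of 0.27. Cxcl10, the interferon-induced attractant of T cells, was at 0.54, 0.90, 3.38 and 3.39 FPKM, likewise above both controls with both ligands and equal between them. Ccl5, an attractant under both interferon and NF-κB control, was at 0.72, 0.18, 0.53 and 4.90 FPKM and so was high with fOS only (log2 direct ratio −2.99, control ratio 1.55, read ratio 0.118 with an interval of 0.0228 to 0.382). Cxcl16 was at 38.71, 62.15, 24.53 and 53.28 FPKM, lowest with ManGn (−1.12 and −0.68). Ccl7 reached 1.43 FPKM with ManGn and 0.10 with fOS, on 11.4 and 0.844 estimated reads, so its interval ran from 1.69 to 501. Cxcl1 and Cxcl3 were listed at 0 in all 4 libraries.

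An NF-κB-like letter pattern, GGAANNNCC on either strand, was looked for in the window of Cxcl2. The pattern was chosen after the values were seen. It was found at 2 places there, beside 22.2% of the windows of genes compared and 18.5% of all windows with at least 1. It was also looked for in the other chemokine windows, and 2 of 5 CCL windows and 2 of 4 CXCL windows held it. Among genes higher with ManGn it was in 0 of 1 CCL window and 1 of 2 CXCL windows. It is shown in capitals in the stretch before the start of this gene.
Cxcl2, chr5:90903777-90903876, plus strand: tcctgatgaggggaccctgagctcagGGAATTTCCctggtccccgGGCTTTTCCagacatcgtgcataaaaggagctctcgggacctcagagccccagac

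Among 29 NF-κB inflammatory targets compared, 6 were higher with ManGn than with fOS and 0 were lower beside 6.54% and 2.56% of all genes (median log2 direct ratio 0.20, control median −0.64). By own-control difference 12 were higher and 1 lower, with a median of 0.65. Nos2, the inducible nitric oxide synthase, was at 6.82, 0.42 and 3.47 FPKM with water, mock extraction and ManGn and was listed at 0 with fOS, so the water control exceeded ManGn. Malt1, a protease of NF-κB signaling, was at 14.76, 19.40, 41.19 and 17.27 FPKM (log2 direct ratio 1.25, read interval 2.21 to 2.58). Tnf, chosen after its values were seen, was at 9.88, 13.93, 73.61 and 36.40 FPKM, above both controls with both ligands and 1.01 apart on the log2 scale. Il6 was listed at 0 in all 4 libraries, and Il1b was at 0.30 FPKM in both controls and at 0 with both ligands. Il1rn, which encodes the antagonist of the IL-1 receptor, was far more abundant, with 6.03, 31.47, 312.69 and 82.73 FPKM. It was highest with ManGn and above both controls with fOS, its log2 direct ratio was 1.92, and its control ratio was −2.36.

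**Figure D3:**
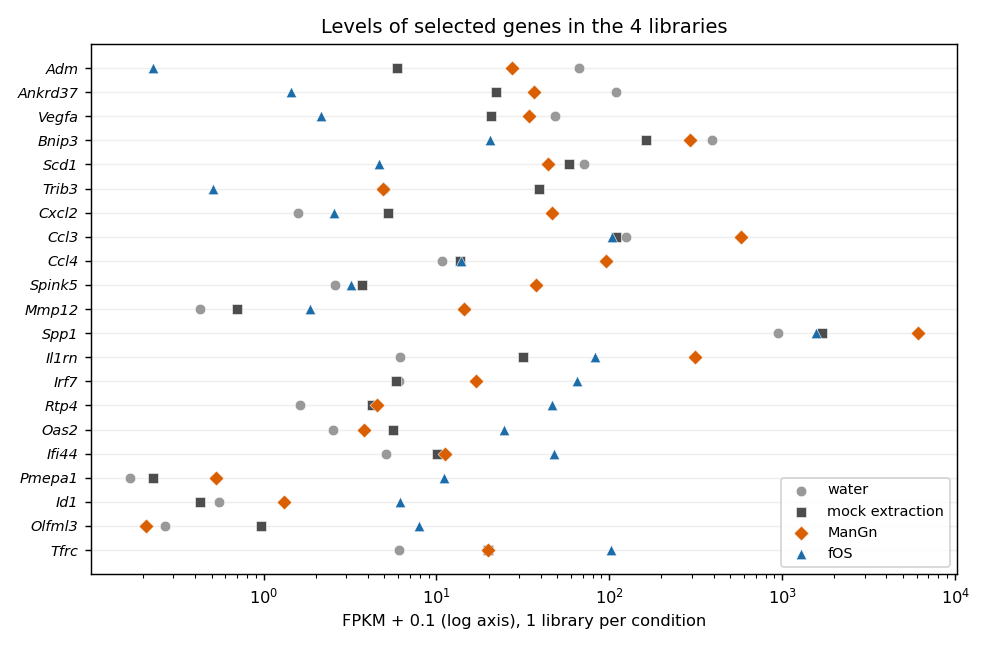
Levels of 21 genes named in the text as FPKM + 0.1 on a log axis, with 1 symbol per library and no error bars because there was 1 library per condition. From Adm to Trib3 fOS is the lowest, from Cxcl2 to Il1rn ManGn is the highest, and from Irf7 to Tfrc fOS is the highest.

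Several genes outside the chemokine and cytokine lists stood high in the ManGn library. Spink5, a serine protease inhibitor, was at 2.48 FPKM with water, 3.63 after mock extraction, 37.29 with ManGn and 3.10 with fOS (log2 direct ratio 3.55, control ratio −0.53, read interval 10.2 to 14.3). Pdpn, the podoplanin gene, was listed at 0 in both controls and was at 7.24 FPKM with ManGn against 0.16 with fOS, the latter on 3.06 estimated reads. Mmp12, the macrophage elastase, was at 0.33, 0.60, 14.41 and 1.75 FPKM (log2 direct ratio 2.97, control ratio −0.70). For all 3 the other libraries stayed under 4 FPKM.

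Spp1, which encodes the secreted phosphoprotein osteopontin, was at 946.41, 1687.48, 6087.27 and 1567.32 FPKM and was therefore one of the more abundant transcripts that differed (log2 direct ratio 1.96, control ratio −0.83). Atp6v0d2, a proton pump subunit of osteoclasts and macrophages, was at 5.2, 12.35, 139.89 and 29.81 FPKM, with fOS also above both controls (2.23 and −1.23). Car2, a carbonic anhydrase, was at 9.33, 5.40, 22.95 and 4.66 FPKM (2.28 and 0.78). In the osteoclast list that holds the latter pair, ManGn was the highest library for 8 of 11 genes compared, beside 18.1% of all genes. With ManGn 2 of the 11 were at least 2-fold higher and 1 lower than with fOS, beside 6.54% and 2.56%. By own-control difference 6 were higher and 0 lower, beside 9.93% and 3.57%. Of 10 matrix proteases and inhibitors compared, 3 were higher and 2 lower, beside 6.54% and 2.56%, with a median log2 direct ratio of 0.46. The lower genes, Mmp8 and Mmp14, were at 1.06 and 1.07 FPKM with fOS and under 1 FPKM with ManGn. The own-control median of this list was 0.97, with 5 higher and 1 lower, beside 9.93% and 3.57%.

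Immediate early factors had the same tendency. Of 17 AP-1 and EGR genes, 6 were higher with ManGn and 1 was lower, beside 6.54% and 2.56% of all genes compared. The median log2 direct ratio was 0.47 and the control median 0.06, with 3 genes higher and 3 lower between the controls. ManGn was the highest library for 10, beside 18.1% of all genes. By own-control difference 7 were higher and 0 lower, beside 9.93% and 3.57%. Egr2, a zinc finger factor, was at 6.99, 2.96, 16.11 and 1.81 FPKM (log2 direct ratio 3.09, control ratio 1.21), and Egr3 was at 2.62, 1.98, 11.12 and 1.73 FPKM (2.62 and 0.39). Ier3, an early response gene, was at 96.59, 24.63, 81.53 and 9.40 FPKM (3.10 and 1.97), where water exceeded ManGn. Neat1, a nuclear long noncoding RNA, was at 156.37, 262.49, 346.19 and 58.76 FPKM, above both controls with ManGn and below both with fOS (2.56 and −0.75, read interval 5.61 to 6.19).

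In the other direction the clearest group was the interferon-stimulated antiviral genes. Of 65 listed, 63 were in the table and 60 were compared. With ManGn 30 of these were lower than with fOS by 2-fold or more and 2 were higher, beside 2.56% and 6.54% of all genes compared. Of the lower genes, Zbp1, Mx2, Ifit1, Oasl2, Ifit3 and Cmpk2 reached 1 FPKM with fOS only. Of the higher genes, Ifitm1 reached it with ManGn only. The median log2 direct ratio of the list was −0.99, and 54 of 60 ratios were negative, beside 5552 of all 10829 genes compared. The controls leaned the same way, with a median of −0.31. With water 18 genes were lower and 2 higher than with the mock extraction, beside 9.39% and 5.62% of all genes. By own-control difference 20 of the 60 were lower and 4 higher, beside 3.57% and 9.93% of all genes, with a median of −0.40. The median level was 6.67 FPKM with water, 10.4 after mock extraction, 9.06 with ManGn and 19.6 with fOS. Of the 4 libraries fOS was the highest for 50 of the 60, beside 32.0% of all genes, and lay at least 2-fold above both controls for 21, beside 2.00%. ManGn lay at least 2-fold above both controls for 2 of the 60, and was the lowest of the 4 for 9, beside 16.4% of all genes.

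Irf7 (Entrez Gene 54123), the transcription factor that amplifies interferon production, was at 6 FPKM with water, 5.73 after mock extraction, 16.85 with ManGn and 65.20 with fOS. Here the controls were level, both ligands lay above them, and fOS was the higher (log2 direct ratio −1.95, control ratio 0.07). Rtp4, an interferon-induced receptor transporter gene, was at 1.53, 4.13, 4.40 and 46.38 FPKM (−3.37 and −1.38, read interval 0.0731 to 0.122). Oas2, which makes the 2-5A messenger that activates RNase L, was at 2.42, 5.49, 3.72 and 24.60 FPKM (−2.69 and −1.15). For Rtp4 and Oas2 fOS was the highest library, and ManGn lay near or under the mock extraction, while Rtp4 with ManGn was 1.47 above water on the log2 scale.

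Zbp1, a sensor of left-handed nucleic acid, was at 0.13, 0.52, 0.52 and 5.63 FPKM, and Ifi44 was at 4.99, 9.93, 11.17 and 47.44 FPKM, with log2 direct ratios of −3.21 and −2.08. Usp18, a brake on the interferon receptor, was at 6.34, 6.22, 8.26 and 18.80 FPKM (−1.18, control ratio 0.03). For this gene the controls were level, as for Irf7. Ifit1, a reader of viral RNA caps, was low throughout, listed at 0 with water and at 0.26, 0.17 and 1.61 FPKM in the other libraries.

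Not every interferon-stimulated gene followed. Isg15, a ubiquitin-like modifier, was at 6.79, 8.06, 11.06 and 11.94 FPKM, and Ifitm3, which blocks viral entry, was at 322.56, 335.20, 618.03 and 618.36 FPKM, so both were above both controls with both ligands and about equal between them. Ifitm6 was at 54.83, 66.33, 101.77 and 30.36 FPKM and Ifitm1 at 0.47, 0.15, 1.23 and 0.15 FPKM, the 2 members higher with ManGn (log2 direct ratios 1.74 and 2.41). Samd9l was at 2.78, 14.91, 8.82 and 20.60 FPKM with a log2 direct ratio of −1.21 and a control ratio of −2.38, and Slfn2 was at 17.07, 70.60, 51.32 and 114.16 FPKM (−1.15 and −2.04). In that pair the controls were further apart than the ligands, in the same direction. The interferon gene Ifnb1 itself was listed at 0.13 FPKM with fOS and at 0 in the other 3 libraries.

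The interferon-stimulated response element contains GAAANNGAA, in which N is any base. RefSeq windows were given for 49 of the 60 genes, and 30 of their 61 windows (49.2%) held the letters on either strand, beside 7.17% of the windows of genes compared and 8.56% of all windows given. The stretches before the starts of both genes with the largest negative direct ratios that held a match are shown in the direction of transcription from GRCm38.p6, with the matches in capitals, which overlap in Ifit1.
Ifit1, chr19:34640760-34640859, plus strand: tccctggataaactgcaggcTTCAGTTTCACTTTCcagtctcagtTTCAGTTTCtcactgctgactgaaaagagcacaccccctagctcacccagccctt
Ifi44l, chr3:151762892-151762991, minus strand: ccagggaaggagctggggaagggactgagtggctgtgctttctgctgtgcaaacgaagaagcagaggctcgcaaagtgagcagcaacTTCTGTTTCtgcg
Ifi44l was at 1.05, 1.70, 2.54 and 9.33 FPKM (log2 direct ratio −1.84, control ratio −0.65). The window of Irf7 held no match.

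A few targets of TGF-β and BMP signaling were high with fOS, while the list as a whole was not. Of 20 compared, 4 were lower with ManGn and 0 were higher, beside 2.56% and 6.54% of all genes. Of the lower genes, Pmepa1, Smad6 and Id3 were compared only because they reached 1 FPKM with fOS. The median log2 direct ratio of the list was −0.03, with 10 ratios positive and 10 negative, beside 5264 and 5552 of all 10829 genes. The fOS library was the highest of the 4 for 7 genes and the lowest for 7, beside 32.0% and 29.5% of all genes. By own-control difference 5 were lower and 0 higher. Pmepa1, an inhibitor of SMAD signaling, was at 0.07, 0.13, 0.43 and 10.90 FPKM (log2 direct ratio −4.38, control ratio −0.44), on 19.4 estimated reads with ManGn and 521 with fOS (read interval 0.0230 to 0.0609). Smad6, an inhibitory SMAD, was at 0.50, 0.40, 0.20 and 3 FPKM, and Id1, an inhibitor of differentiation factors, was at 0.45, 0.33, 1.21 and 6.08 FPKM. Id3 was at 0.11, 4.10 and 21.56 FPKM with water, mock extraction and fOS and was listed at 0 with ManGn, and for this gene the controls differed in the same direction (control ratio −4.32). Olfml3, a secreted olfactomedin protein gene that is not in this list and was named by its rank, was at 0.17, 0.86, 0.11 and 7.83 FPKM (−5.24 and −1.83).

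Several genes for receptors and transporters, named by their rank or list, were also higher with fOS. Tfrc, the transferrin receptor that takes up iron, was at 6, 19.64, 19.82 and 102.49 FPKM, with ManGn on the level of the mock extraction (log2 direct ratio −2.36, control ratio −1.69, read interval 0.180 to 0.207). Slc7a8, an amino acid transporter, was at 21.62, 27.84, 14.92 and 63.07 FPKM (−2.07 and −0.36). Il13ra2, the decoy receptor for IL-13, was at 0.19, 1.47, 1.40 and 13.86 FPKM (−3.22 and −2.44). Havcr2, the checkpoint receptor TIM-3, was at 14.56, 19.14, 8.42 and 34.32 FPKM, and its ligand gene Lgals9 was at 17.11, 20.34, 17.34 and 46.57 FPKM, so both genes of this pair were high with fOS. Msr1, the class A scavenger receptor, was at 31.22, 168.38, 130.04 and 437.64 FPKM, and its control ratio of −2.43 was larger than its direct ratio of −1.75.

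Receptors for microbial and glycan ligands differed in both directions by direct ratio. Of 21 Toll-like receptor and adaptor genes compared, 3 were higher and 3 lower, beside 6.54% and 2.56% of all genes, with a median of −0.12. By own-control difference the sign of the list turned, with 8 higher, 0 lower and a median of 0.72. The receptor genes Tlr8 (1.63, 5.97, 1.70 and 4.67 FPKM) and Tlr2 (26.63, 64.16, 34.32 and 82.91 FPKM) were lower with ManGn, with control ratios of −1.81 and −1.27 in the same direction, while the adaptor gene Ticam2 (15.23, 20.80, 18.33 and 6.71 FPKM) and the kinase gene Irak2 (23.82, 21.55, 30.53 and 11.49 FPKM) were higher. Of 23 C-type lectin and mannose receptor genes, 1 was higher and 3 were lower, beside the same shares of all genes (own-control difference, 2 higher and 1 lower). Clec4d, a receptor for mycobacterial glycolipid, was at 42.81, 97.77, 147.61 and 346.02 FPKM (log2 direct ratio −1.23, control ratio −1.19), and Clec10a, a galactose-type lectin, was at 28.84, 15.40, 10.10 and 3.51 FPKM (1.5 and 0.90). In both of these lectins the control ratio had the sign of the direct ratio.

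Of 17 STING and TBK1 pathway genes compared, 0 were higher and 2 were lower, beside 6.54% and 2.56% of all genes, with a median log2 direct ratio of 0.04 (own-control median −0.13, with 2 higher and 0 lower). Tmem173, which encodes STING, was at 4.79, 11.41, 7.80 and 6.6 FPKM, and Tbk1 was at 29.97, 27.56, 32.87 and 30.35 FPKM. Trex1 was at 14.42, 19.02, 9.90 and 23.89 FPKM, lowest with ManGn and highest with fOS (−1.26 and −0.40). Mb21d1, the gene of the DNA sensor cGAS, was at 11.62, 12.42, 10.94 and 20.56 FPKM (−0.90 and −0.10).

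Of 50 genes that build N-glycans or degrade free oligosaccharides, 0 were higher and 1 was lower, beside 6.54% and 2.56% of all genes, with a median log2 direct ratio of 0.01 and an own-control median of −0.01. That 1 gene was Pmm2, a phosphomannomutase of mannose supply, at 9.63, 23.93, 16.07 and 40.00 FPKM, and the controls differed as much (−1.31 and −1.30). Manba, the lysosomal β-mannosidase that splits the β-linked mannose of the disaccharide, was at 23.91, 26.75, 19.43 and 22.15 FPKM, and Engase, a cytosolic endoglycosidase that releases free oligosaccharides, was at 3.70, 3.11, 2.19 and 2.64 FPKM. Of the antigen presentation genes, 0 of 23 of MHC class I were higher and 1 was lower, and 0 of 6 of MHC class II differed by 2-fold, small counts beside 9.10% of all genes either way. Cd74, the invariant chain, was at 697.97, 394.29, 194.55 and 124.16 FPKM, below both controls with both ligands (0.65 and 0.82). Copies of H2 genes are near identical, and their values are uncertain.

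Housekeeping lists differed at few genes by 2-fold or more. Over all 10829 genes compared, 5552 were lower with ManGn than with fOS by any amount, and 2.56% by at least 2-fold. Of 54 cell cycle and DNA replication genes, 51 were lower by any amount and 1 by at least 2-fold. Their median log2 direct ratio was −0.58 (control median −0.40, own-control median −0.09). Of 43 ribosome biogenesis genes, 39 were lower, 1 of them by at least 2-fold, with a median of −0.52 (control median −0.59, own-control median 0.18, of the other sign). Ribosomal proteins (78 genes, median −0.01), respiratory chain subunits (77 genes, 0.01) and proteasome subunits (34 genes, −0.16) had 0 genes at 2-fold. The most abundant macrophage transcript pair, the lysozyme genes Lyz2 and Lyz1, was at 6219.11 and 5011.82 FPKM with ManGn and 6202.07 and 4421.57 with fOS, and these near-identical genes share reads.

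**Figure D4:**
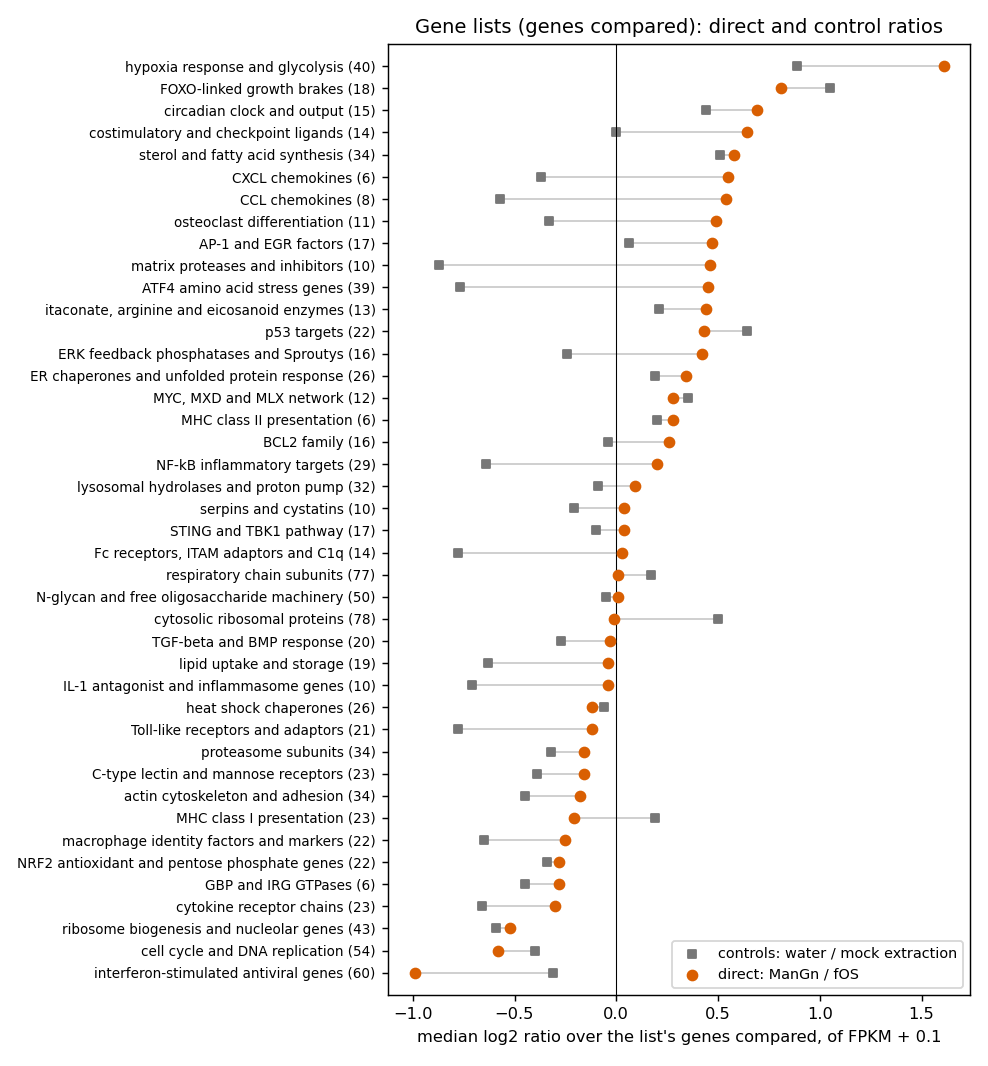
Median log2 ratio over the genes compared of each of 42 gene lists (number of genes in brackets), of FPKM + 0.1, for ManGn over fOS (orange circles) and for water over mock extraction (grey squares). Hypoxia response and glycolysis is at the top with 1.61 beside a control median of 0.89, and the interferon-stimulated genes are at the bottom with −0.99 beside −0.31.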

How the data were processed

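The data were gene-level RNA-seq values of 4 RAW264.7 libraries, 1 per condition. The authors deposited FPKM values per gene, made with RSEM per the labels. The RSEM version, the aligner, the gene models and the genome assembly were not given in the sources used here, and stranded counting is not stated, so genes that overlap or have near-identical copies are uncertain. FPKM are relative to each library's total, so they cannot show a change in all genes at once. The other 7 deposited sheets were not used, and those with ratios hold the authors' ratios of FPKM of each ligand over its own control.

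From the deposited FPKM, log2 of (FPKM + 0.1) ratios were computed in Python 3.11.15 with numpy 2.4.6 and pandas 2.3.3, over genes with at least 1 FPKM in 1 of the ManGn and fOS libraries. A gene was called at 2-fold or more. No test was possible with 1 library per condition. The members, 42 gene lists and 8 marker lists were chosen with earlier results of these data known. Named genes were the 15 highest and 15 lowest by direct ratio with at least 5 FPKM in 1 of both libraries, the 10 highest and 10 lowest whose control ratio was under 2-fold or opposite, the 5 with the largest difference between direct and control ratio each way, up to 4 members per list, and any member of the interferon, STING and TBK1, chemokine and MHC lists. At the ends of the ranking 8 and 6 small RNA genes and 1 and 2 predicted genes were passed over. Of the 10 most abundant genes, only Spp1, Lyz2 and Lyz1 are described.

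Depth was estimated from FPKM steps with transcript lengths of GENCODE M21, in which 13488 genes have 1 length. Only low values of transcripts between 400 and 1500 nt entered, 388 to 436 values per library. The same lengths turned FPKM into estimated reads, so the read ratios and intervals rest on them. Between 65.1% and 69.3% of the values used lay within 0.1 of a whole read, so the depth is approximate. Intervals are exact 95% intervals (Clopper-Pearson, scipy 1.17.1) of the ratio of estimated reads and cover counting error only. They exist for 154 of the 206 named genes. Promoter windows came from RefSeq (GRCm38.p6). The 2-fold calls and the depth estimate were tested on simulated data, and the intervals were not. Settings were varied to a pseudocount of 1 or 0.01, to no filter or a minimum of 5 FPKM, to centring on the median, to upper quartile or trimmed mean scaling, to leaving out small RNA and predicted genes or genes at 0, and to the difference of the ratios to own controls. Figures were drawn with matplotlib 3.10.9. Some single items are not reported here.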

Additional observations from a re-analysis of the deposited data

Results flagged for a closer look

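Some named genes lay on opposite sides of their own controls with the 2 ligands. Every such difference comes from 1 library per condition and was not tested. The value given is the log2 ratio of ManGn to water minus that of fOS to the mock extraction. It was 5.91 for Cxcl2, 3.61 for Ptgir, the prostacyclin receptor gene, 3.51 for Niacr1, the niacin receptor gene, and 3.30 for Neat1, which were above water with ManGn and below the mock extraction with fOS. It was −3.44 for Id3 and −4.58 for Pbld1, which were below water with ManGn and above the mock extraction with fOS. For Pbld1 the controls were at 19.67 and 2.35 FPKM and the ligands at 3.35 and 10.11 FPKM, so the control ratio of 3.01 was opposite to the direct ratio of −1.57. Over all genes compared, 53 had the first pattern at 2-fold or more each way, of which 24 were neither small RNA nor predicted genes, and 28 had the second, of which 9 were neither.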

How the results depend on the processing

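With 1 library per condition, nothing here measures variation between cultures, and vehicle and ligand cannot be told apart in the direct ratio. No paired analysis was possible because each condition has 1 library and no replicate can be left out. Counts of genes and single ratios depend on how low values are treated. With a pseudocount of 1, 21 of the 46 log2 ratios of genes named by rank were classed as moved and 0 as reversed. The 708 higher and 277 lower genes became 426 and 177 with a pseudocount of 1, 1288 and 562 without a filter, and 348 and 156 at 5 FPKM or more. The count of genes higher with water than with the mock extraction, 609, became 1266 without a filter and 300 at 5 FPKM or more. CXCL genes higher with ManGn numbered 1 with a pseudocount of 1 and 1 at 5 FPKM or more, and their median log2 ratio was 0.00 without a filter and 1.54 at 5 FPKM or more. The CCL median was 1.37 at 5 FPKM or more.

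The ratio that replaces both ligands by their differences from their own controls moved list medians and signs. Of the 46 genes named by rank, it moved 41 and reversed 1. It gave 1075 higher genes, 6 CCL genes higher with a median of 1.41, 16 hypoxia and glycolysis genes higher with a median of 0.84, and a median of −0.40 for the interferon-stimulated genes. It reversed the medians of the FOXO-linked growth brakes to −0.09, of ribosome biogenesis to 0.18 and of clock genes to −0.01, and the ratio of Lipn, a lipase gene with a direct ratio of −2.63, to 0.31. This follows from its construction, since it subtracts the control ratio. Under centring, upper quartile scaling and trimmed mean scaling, 42 of 42 list medians stayed within 0.5 on the log2 scale of the values given, and none of at least 0.5 changed sign.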
